A study of Mus musculus with 4 samples.

Results

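The keratin genes were examined as a family in mouse trachea and oviduct. The rule for members used the symbol and no measured value: it took every gene of the array annotation whose symbol is Krt followed only by digits. This gave 47 of 30544 named genes. One of them, Krt90, carried an older name in the annotation and entered through its gene identifier, and each of the 47 was read by 1 probe set. The 2 probe sets that list several keratins each, Krt6a with Krt6b and Krt81 with Krt83, were left unnamed. RNA came from whole freshly dissected tissue of mice of mixed C57BL/6 x 129 strain, and there were 4 groups with 1 array each: WT trachea and trachea of GEMC1 null mice (males, 39 days), and WT oviduct and oviduct of GEMC1 null mice (females, 65 days). Whether an array held 1 mouse or several, and which part of the gene was deleted, is not stated in the labels. Tissue, sex and age changed together and cannot be told apart.

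Keratins are the intermediate filament proteins of epithelial cells. A filament is built from pairs of a type I and a type II keratin, and which pair a cell makes follows its kind of epithelium: Krt8 with Krt18 in simple epithelium, Krt5 with Krt14 in basal cells of layered epithelium, Krt4 with Krt13 in the upper layers of squamous mucosa such as oesophagus, and a large set of hair and root sheath keratins in the hair follicle. The airway and the oviduct are lined by columnar cells rich in simple keratins, and the airway also has basal cells beneath them.

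Levels are given as log2 RMA signal. A difference is the log2 level on a tissue's null-labelled array less that on its WT array, so that a difference of 1 is 2-fold. With 1 array per group no difference within a tissue has a replicate, an error or a test. In bulk RNA of this kind, fewer cells of a type and less RNA per cell cannot be told apart. The deleted gene, Gmnc (NCBI gene 239789), encodes GEMC1, a geminin relative needed for multiciliated cells, and stood at 5.90 in WT trachea and 4.63 in the trachea labelled null, and at 6.11 and 8.86 in oviduct, where the direction goes against the label. Both trachea levels were below the negative-control medians of their arrays (5.98 and 5.74), so the trachea pair does not check the label. Each direction below therefore rests on the labels. The median over 5222 negative-control probe sets lay between 5.74 and 5.98 on the 4 arrays. To pass the level filter in a comparison, a gene had to reach the median over all probe sets (5.91 to 6.00) on at least 1 of the 2 arrays. Of the 47 keratins 37 passed in trachea, 31 in oviduct, and 9 in neither.

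The start regions of 4 keratins that mark the pattern below are shown first, since they stand for the squamous (Krt13), basal (Krt5) and simple (Krt8 and Krt18) classes. Each is the RefSeq sequence (GRCm38.p6) from 250 bases before to 50 after an annotated start, written 5′ to 3′ on the gene's strand, at chr11:100121517-100121816 for Krt13, chr15:101712856-101713155 for Krt5 and chr15:102004293-102004592 for Krt8 (all on the minus strand) and chr15:102027966-102028265 for Krt18 (plus strand). Capitals mark matches, on either strand, to the letters searched. One string was TATAAA, the TATA box. A further string was TGANTCA, known for AP-1 factors. For Sp1 the letters GGGCGG were searched. For the Krüppel-like factors, several of which act in epithelium, the string was CCNCACCC.
Krt13: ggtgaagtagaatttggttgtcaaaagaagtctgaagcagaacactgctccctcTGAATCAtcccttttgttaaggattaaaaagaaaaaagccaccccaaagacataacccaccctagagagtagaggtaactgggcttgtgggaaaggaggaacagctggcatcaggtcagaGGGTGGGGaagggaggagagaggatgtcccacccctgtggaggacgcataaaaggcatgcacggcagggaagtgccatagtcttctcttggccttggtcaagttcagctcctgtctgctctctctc
Krt5: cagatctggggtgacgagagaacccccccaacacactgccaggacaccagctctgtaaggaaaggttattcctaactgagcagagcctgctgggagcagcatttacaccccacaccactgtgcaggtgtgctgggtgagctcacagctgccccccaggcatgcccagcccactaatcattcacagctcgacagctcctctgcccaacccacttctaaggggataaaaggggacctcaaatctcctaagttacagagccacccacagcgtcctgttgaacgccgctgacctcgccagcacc
Krt8: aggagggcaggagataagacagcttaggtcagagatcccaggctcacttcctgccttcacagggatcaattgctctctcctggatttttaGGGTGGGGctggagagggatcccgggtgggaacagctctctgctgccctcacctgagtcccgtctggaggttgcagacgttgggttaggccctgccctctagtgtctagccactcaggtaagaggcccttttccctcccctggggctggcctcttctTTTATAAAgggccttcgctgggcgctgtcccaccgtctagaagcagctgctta
Krt18: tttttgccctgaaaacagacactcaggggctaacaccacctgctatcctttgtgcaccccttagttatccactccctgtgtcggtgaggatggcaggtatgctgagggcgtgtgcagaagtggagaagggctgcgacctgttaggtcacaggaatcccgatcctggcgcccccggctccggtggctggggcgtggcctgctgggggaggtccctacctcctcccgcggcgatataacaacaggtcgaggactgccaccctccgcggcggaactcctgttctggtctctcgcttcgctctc
The Krt13 region holds TGANTCA once, 196 bases before the start, and a region at a further annotated start of Krt13 holds it at 183 and at 34 bases before. The Krt8 region holds TATAAA on both strands in overlapping positions next to the annotated start. Krt13 and Krt8 each hold CCNCACCC, on the minus strand. In the Krt5 and Krt18 windows these letters were not found. Of the 35 keratin genes with such a region, 18 held TATAAA, against 13.6% of 32851 start regions of 300 bases in the table. Among them were 12 of 16 hair and root sheath keratins and 6 of 19 others. TGANTCA was found in 1 of the 35, Krt13, against 7.81% of all regions, GGGCGG in 2, one of them Krt7, against 35.7%, and CCNCACCC in 7 against 16.6%. These matches describe letters only.

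In trachea the keratins of squamous mucosa and of basal cells were higher on the array labelled GEMC1 null, and those of simple epithelium were lower. Of the 37 keratins past the level filter, 8 were at least 2-fold higher, where 6.34% of all 20048 genes were, and 4 at least 2-fold lower, where 7.70% of all genes were. Krt76 and Krt32, 2 of the 8 that were higher, passed the filter through the null-labelled array alone and were short of 2-fold when taken from the negative-control median, which leaves 6. The median difference over the 37 was 0.44, against 0.03 over all genes. Further members, such as Krt16, Krt77 and the hair keratins Krt35 and Krt36, also passed through the null-labelled array alone. Such entry fixes a difference above 0 in advance, so this median follows in part from the filter. The keratin pair of squamous mucosa differed most of the family.

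Krt13 (NCBI gene 16663), the type I keratin of that pair, stood at 6.23 in WT and 12.66 in null-labelled trachea, and at 6.65 and 6.86 in WT and null-labelled oviduct. The null-labelled trachea array was thus high and the other arrays were near background. The trachea difference was 6.43, or 86.3-fold, a size that background limits, since the WT level lay close to the negative-control median of 5.98. Krt4 (NCBI gene 16682), its type II partner, stood at 7.18 and 13.48 in trachea and at 5.78 and 5.88 in oviduct. Its trachea difference of 6.30, or 78.8-fold, was next in size to that of Krt13. Krt78, a type II keratin listed with them, stood at 6.77 and 9.43 in trachea, a 6.33-fold higher level, and at 6.81 and 6.93 in oviduct. Krt76, a type II keratin of the palate, stood at 5.06 and 6.17 in trachea and at 5.23 and 5.31 in oviduct. Its WT trachea level lay below the negative-control median of 5.98, and taken from that median its fold was at least 1.14, short of 2-fold.

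**Figure D1:**
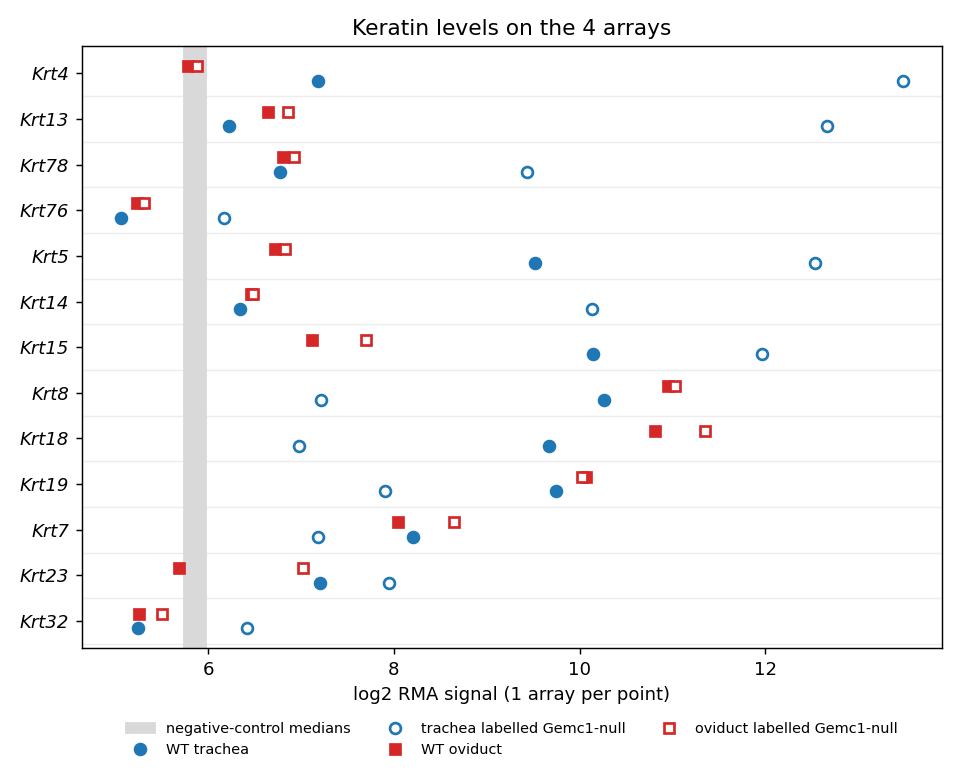
Log2 RMA signal (x axis) of the 13 keratins that differed at least 2-fold in trachea, in oviduct or between the WT arrays, with 1 point per array: circles for trachea, squares for oviduct, filled for WT and open for arrays labelled GEMC1 null. The grey band spans the negative-control medians from 5.74 to 5.98; Krt4 and Krt13 reach 13.48 and 12.66 only on the trachea array labelled null, while Krt8 and Krt18 stand at 7.22 and 6.98 there.

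The basal cell keratins Krt5, Krt14 and Krt15 were also higher in null-labelled trachea, by smaller differences than Krt4 and Krt13. Krt5 (NCBI gene 110308), the type II basal keratin, stood at 9.52 and 12.54 in WT and null-labelled trachea, and at 6.72 and 6.83 in oviduct. Both trachea arrays were above both oviduct arrays, and the trachea difference was 3.02, or 8.09-fold. Krt14 (NCBI gene 16664), its type I partner, stood at 6.34 and 10.13 in trachea and at 6.46 and 6.48 in oviduct. In contrast to Krt5, Krt14 was as low on the WT trachea array as in oviduct, and its difference of 3.78, or 13.8-fold, is limited by background in the same way as that of Krt13. Krt15, a type I keratin of basal cells that is made without Krt14 in some epithelia, stood at 10.15 and 11.96 in trachea and at 7.12 and 7.70 in oviduct. It was 3.50-fold higher on the null-labelled trachea array. Krt17, a keratin of basal and injured epithelium, stood at 7.75 and 7.69 in trachea, a difference of -0.06, and at 7.02 and 6.68 in oviduct. Krt16, a keratin of stressed epidermis that is closely related to it, differed by 0.47 in trachea and 0.11 in oviduct, both under 2-fold. Krt14, Krt16, Krt17 and Krt42 are close relatives in sequence, and cross-hybridisation between their probes was not tested.

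The simple keratins were lower in trachea. Krt8 (NCBI gene 16691), the type II keratin of simple epithelium, stood at 10.26 in WT and 7.22 in null-labelled trachea, against 10.95 and 11.03 in oviduct. Only the null-labelled trachea array was low, 8.23-fold below WT trachea. Krt18 (NCBI gene 16668), its type I partner, stood at 9.67 and 6.98 in trachea, a 6.44-fold lower level, and at 10.81 and 11.35 in oviduct. Krt19, a type I keratin of ducts and airway, stood at 9.75 and 7.91 in trachea (3.58-fold lower) and at 10.07 and 10.03 in oviduct. Krt7, a type II keratin of glands and ducts, stood at 8.21 and 7.18 in trachea, 2.04-fold lower and thus just past the threshold, and at 8.04 and 8.65 in oviduct. All 4 levels on the null-labelled trachea array remained above its negative-control median of 5.74. They lay below 8.70, however, a level that a small part of the negative controls on that array exceeded. Background may therefore limit the size of these 4 differences too. Of the 2 other keratins listed as simple, Krt23, a type I keratin, stood at 7.21 and 7.95 in trachea, a difference of 0.74 that is under 2-fold, and Krt20, an intestinal and urothelial keratin, did not pass the filter there.

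Within each type I and type II pair the differences in trachea had the same sign. They lay 0.13 apart for Krt4 and Krt13, 0.35 apart for Krt8 and Krt18 and 0.77 apart for Krt5 and Krt14. In oviduct, where all these differences were under 2-fold, they lay 0.11, 0.46 and 0.08 apart in the same order. Between WT oviduct and WT trachea the gaps were 1.82, 0.45 and 2.91. Krt13 and Krt14 were near background on both WT arrays, which limits the first and last of these WT gaps. The gaps of the same pairs in trachea and in oviduct are limited in the same way. Background may also limit the trachea gap of Krt8 and Krt18, through their levels on the null-labelled array. No test of these gaps is possible with 1 array per group.

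The 5 keratins of the upper epidermis, Krt1, Krt2, Krt9, Krt10 and Krt77, differed by 0.17 to 0.84 in trachea, the highest being Krt10, a type I keratin of differentiating epidermis, at 5.93 and 6.77. Krt80, a type II keratin of many epithelia, stood at 7.33 and 8.11, a difference of 0.79 and also under 2-fold. None of these 6 keratins was past 2-fold in trachea or in oviduct. Krt1, Krt2 and Krt9 passed the level filter in neither tissue, so their levels near background could show little difference.

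Of the 19 keratins of hair, nail and root sheath 15 passed the filter in trachea, and 1 was at least 2-fold higher, a share near the 6.34% of all genes. Their levels on the 4 arrays lay between 4.34 and 7.12. That one was Krt32, a type I hair keratin, at 5.24 and 6.42 in trachea and at 5.26 and 5.50 in oviduct. Its WT trachea level was below background, and taken from the negative-control median its fold was at least 1.35, short of 2-fold. The 10 hair and nail keratins had a median difference of 0.38 in trachea and 0.11 in oviduct, and the 9 root sheath and companion layer keratins had medians of 0.22 and 0.13. Krt86 is a near copy of Krt81 and Krt83, and whether its probe set tells it apart from them was not tested. Small differences above 0 were common across the low keratins: all 10 members that failed the level filter in trachea lay above 0, between 0.07 and 0.50 (median 0.24). The 10496 genes of the whole array that failed it had a median of 0.10, with 7388 of them above 0. Krtap and other hair and skin genes that are no keratins had a mean level of 5.34 in WT and 5.91 in null-labelled trachea. Of the 3 past the filter 1 was at least 2-fold higher, Lce1a1 of the cornified envelope, at 4.69 and 7.41. It passed the filter through the null-labelled array alone. The hair protein gene Tchh stood at 4.04 and 3.96.

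**Figure D2:**
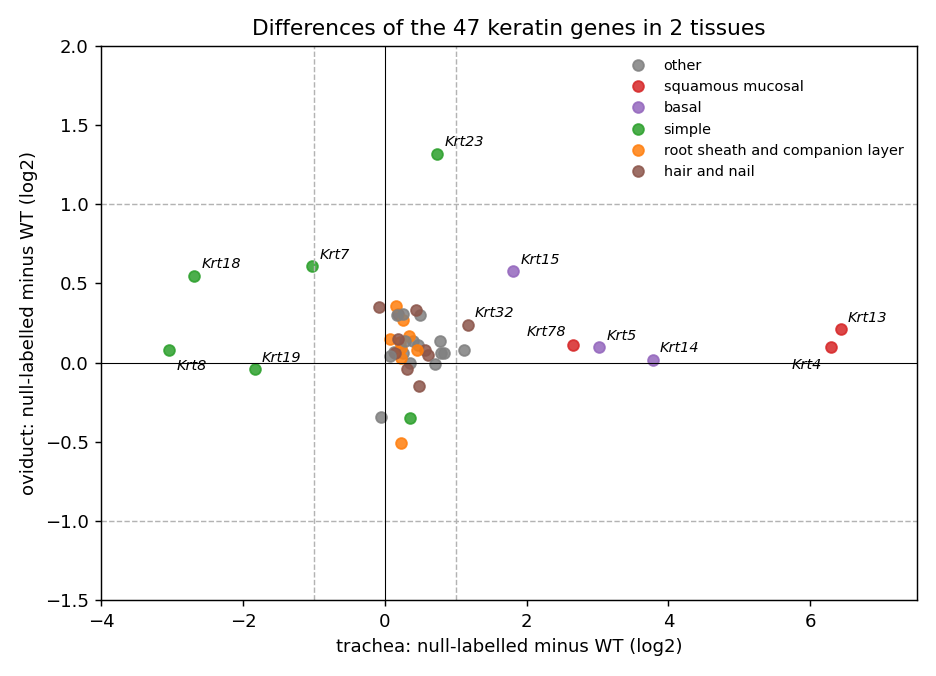
Difference between the array labelled GEMC1 null and the WT array in trachea (x axis, log2) against the same difference in oviduct (y axis, log2) for all 47 keratins, 1 point per gene, coloured by class, with dashed lines at 2-fold. Krt13 and Krt4 lie farthest right at 6.43 and 6.30, Krt8 farthest left at -3.04, and only Krt23, at 1.32, is past 2-fold on the y axis.

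In oviduct the keratins differed little between genotypes, apart from Krt23. Of the 31 above the level filter, 1 was at least 2-fold higher, where 0.801% of all 19594 genes were, and 0 were at least 2-fold lower, where 2.75% of all genes were. Krt23 stood at 5.69 in WT and 7.02 in null-labelled oviduct. The WT level was below the negative-control median, and taken from that median Krt23 was at least 2.37-fold higher. The other 30 lay between -0.51 (Krt75, a companion layer keratin) and 0.61 (Krt7), with a median of 0.11 against 0.05 over all genes. Krt8, Krt18 and Krt19, the abundant simple keratins of this epithelium, differed by 0.08, 0.55 and -0.04. Krt4 was at background on both oviduct arrays and did not pass the filter there, and Krt13, Krt78, Krt5 and Krt14 differed in oviduct by 0.21, 0.11, 0.10 and 0.02.

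The 2 tissues gave opposite signs for 3 simple keratins, with trachea minus oviduct gaps of -3.12 for Krt8, -3.23 for Krt18 and -1.64 for Krt7. In the other direction Krt13 and Krt4 differed by 6.22 and 6.20 more in trachea than in oviduct. These gaps between tissues have no test, because each rests on 4 single arrays. The oviduct difference of Krt8, 0.08, was near the median of 0.05 over all genes, so its sign there says little.

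Between the WT arrays the keratins that differed most were the basal keratins Krt15 and Krt5, which were lower in oviduct. Of 29 keratins above the filter on the WT arrays, 4 were at least 2-fold lower in oviduct than in trachea, where 6.52% of all 19859 genes were, and 1 was at least 2-fold higher, where 4.65% of all genes were. Krt15 was 8.15-fold lower in WT oviduct and Krt5 6.94-fold lower. Krt4 was 2.63-fold lower, with its WT oviduct level of 5.78 at background. Krt23 was at least 2.71-fold lower, its oviduct level being below background. Krt18 was 2.20-fold higher in WT oviduct. Krt14, the partner of Krt5, differed by 0.12, with both WT arrays low. Krt8, Krt19 and Krt7 differed by 0.69, 0.32 and -0.17. Trp63, the transcription factor of basal cells, stood at 6.92 in WT trachea and 5.94 in WT oviduct, a difference of -0.98 that falls just short of 2-fold. The mean level of 6 ovary genes was 5.67 in WT trachea and 9.79 in WT oviduct, and that of 4 lymphocyte genes 10.01 and 5.98. The part of such cells in the keratin differences was not tested.

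Fits over all 4 arrays asked for what the arrays share (limma, 2 arrays per level, residual degrees of freedom 1, prior degrees of freedom 1.77, 38 keratins among 20868 genes). The residual is how far the genotype difference disagrees between the 2 tissues, so the SE measures no spread between animals. For genotype with tissue as a block, 0 keratins and 0 of all genes (0%) passed a limma adjusted p of 0.05. At an unadjusted p under 0.05 there was 1 keratin higher, where 0.800% of all genes were, and 0 lower, where 2.69% of all genes were. The one was Krt23, higher on both null-labelled arrays (0.74 and 1.32), with a log2 difference of 1.03 (SE 0.229, n = 2 per genotype, limma adjusted p = 0.829). Averaged over the 2 tissues, Krt13 had a difference of 3.32 with an SE of 1.87, and Krt8 one of -1.48 with an SE of 0.95. Their differences by tissue, trachea first, were 6.43 and 0.21 for Krt13 and -3.04 and 0.08 for Krt8. For tissue with genotype as a block, 0 keratins and 0% of all genes passed adjustment. At an unadjusted p under 0.05 there were 4 keratins lower in oviduct, where 3.83% of all genes were, and 0 higher, where 7.42% of all genes were. They were Krt15 (-3.64, SE 0.398), Krt5 (-4.25, SE 0.887), Krt23 (-1.22, SE 0.229) and Krt17 (-0.87, SE 0.170), each lower in oviduct on both pairs of arrays, with limma adjusted p-values from 0.306 to 0.378.

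The keratin genes form 2 clusters, with 25 of the members on chromosome 11 (type I) and 22 on chromosome 15 (type II, with the type I gene Krt18 beside Krt8). Some neighbours shared a direction in trachea and others did not. On chromosome 11 Krt13, Krt15 and Krt19 follow each other among the members with differences of 6.43, 1.81 and -1.84, and Krt9 (0.17) lies between Krt19 and Krt14 (3.78). On chromosome 15 Krt4 (6.30), Krt79 (0.26), Krt78 (2.66), Krt8 (-3.04) and Krt18 (-2.69) follow each other. The median difference was 0.36 over the members on chromosome 11 and 0.27 over those on chromosome 15.

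**Figure D3:**
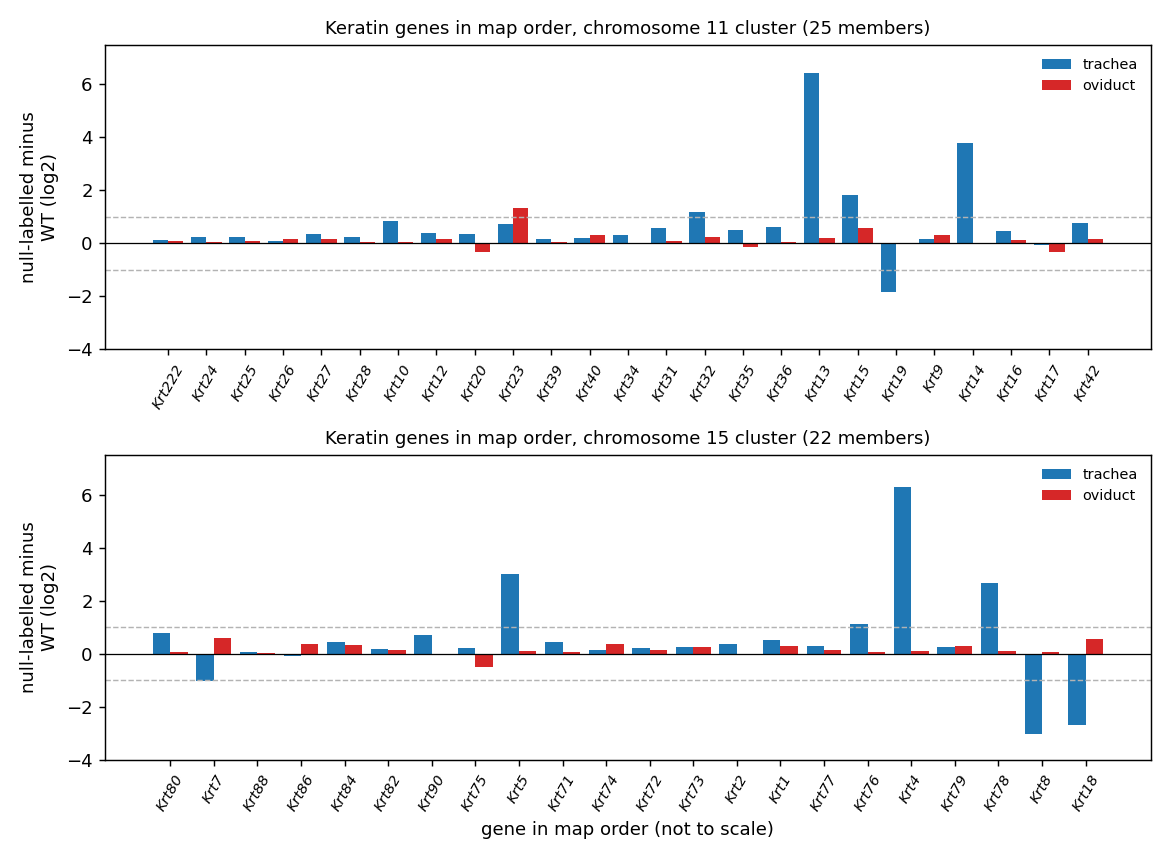
Difference between the array labelled GEMC1 null and the WT array (y axis, log2) for the keratins of chromosome 11 (top) and chromosome 15 (bottom) in map order, with 1 bar per tissue and gene and dashed lines at 2-fold. Higher and lower genes lie side by side, as Krt15 at 1.81 and Krt19 at -1.84 do, and the oviduct bars stay within 2-fold except that of Krt23.

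Genes related to keratin filaments were examined through lists chosen for their roles, with earlier results of these data known. Desmosome products join keratin filaments of neighbouring cells. Of 13 desmosome genes, 10 were higher in trachea by 2-fold or more and 1, Pkp2, was lower by as much (median 2.18). Over all genes 6.34% were higher and 7.70% lower by as much. The largest differences were those of the desmosomal cadherins Dsg3 (4.93 and 10.37), Dsc1 (4.77 and 9.57) and Dsg1a (5.11 and 9.44). Each was below the negative-control median on the WT array. Together with Dsg1b they passed the level filter through the null-labelled array alone. Pkp1, the plakophilin of layered epithelium, differed by 4.21, while Pkp2, the plakophilin also found in simple epithelium, stood at 7.15 and 6.05. Dsg2, the cadherin of simple epithelium, differed by -0.65. In oviduct 0 of 8 desmosome genes past the filter were at least 2-fold different (median 0.15), with Perp at 0.47, Dsp at -0.38 and Pkp2 at 0.33.

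Of 7 hemidesmosome genes, which tie keratins to the basement membrane, 5 were at least 2-fold higher in trachea (median 1.10), led by Col17a1 (2.38), Dst (1.18) and Lama3 (1.17), and 0 of 7 in oviduct (median 0.14), where Dst (0.50), Itga6 (-0.26) and Cd151 (-0.22) differed most. Of 7 plakins and keratin organisers above the filter 5 were higher in trachea by 2-fold or more (median 1.80). Rptn (3.87), Hrnr (3.48) and Ppl (2.27) were among them. Rptn and Hrnr were below background on the WT array and passed the filter through the null-labelled array alone. In oviduct 0 of 6 were past 2-fold (median 0.16), with Fam83h at 0.36, Flg2 at 0.21 and Evpl at 0.19. Among 15 transcription regulators of keratin genes 7 were at least 2-fold higher and 1 lower in trachea (median 0.83). Grhl3, a factor of epidermal differentiation, differed by 3.40, Trp63 by 2.11 and Tfap2a stood at 7.09 and 9.08. The lower one was Elf3, an epithelial factor, at -1.38. In oviduct 0 of 12 were past 2-fold (median 0.25), with Ehf at 0.51, Sox2 at 0.40 and Grhl1 at 0.33. Of 12 other intermediate filament genes 4 were at least 2-fold higher in trachea (median 0.80), with Synm (1.76), Gfap (1.67) and Sync (1.41) ahead of Des (1.07), and Synm was at least 2-fold lower in oviduct (-1.06), next to Lmnb1 (-0.28) and Sync (0.26). Synm, Sync and Des belong to muscle filaments. The list medians stand beside 0.03 over all genes in trachea and 0.05 in oviduct. The counts past 2-fold stand beside 6.34% higher and 7.70% lower over all genes in trachea, and 0.801% and 2.75% in oviduct. The close keratin relatives Krt33a and Krt33b, whose symbols carry a letter, differed by 0.39 and 0.52 in trachea and by -0.07 and 0.05 in oviduct.

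Markers of other cells differed on the same trachea arrays. Of the squamous differentiation genes that are no keratins, 8 of 8 past the filter were at least 2-fold higher (median 5.01). Over all genes 6.34% were. Sprr3, Tgm3, Krtdap, Serpinb3a and Crct1 passed through the null-labelled array alone, so their place in the count follows in part from the filter. Ivl and Rhcg, which did not pass, differed by 0.14 and 0.11. The mean level of all 10 was 5.64 in WT and 9.69 in null-labelled trachea. Tgm3 stood at 5.13 and 12.06, Krtdap at 5.19 and 11.92 and Serpinb3a at 4.28 and 10.81, each at background on the WT array, whereas Ivl stood at 4.84 and 4.98, at background on both. Of the skeletal muscle genes 9 of 9 were at least 2-fold higher (median 4.45, mean level 6.71 and 11.53), where 6.34% of all genes were. Of these Myh1, Myh2, Myh4 and Mylpf passed the filter through the null-labelled array alone. Lower by 2-fold or more were 7 of 7 airway secretory genes (median -5.01, mean level 12.18 and 7.34), 8 of 8 multiciliated cell genes (median -3.79, mean level 8.84 and 5.34), and 4 of 4 lymphocyte genes (median -4.29, mean level 10.01 and 5.85). Over all genes 7.70% were lower by as much. All these multiciliated genes except Cfap65 passed the filter through the WT array alone, as did Scgb3a2, Cd3e and Ms4a1. Their place in the counts follows in part from the filter. On the null-labelled trachea array the airway markers Bpifa1, Bpifb1 and Scgb3a2 were thus at or near background (6.02, 5.93 and 4.77), while Cyp2f2 stood at 11.59 and Scgb1a1 at 8.39. The part of these cell types in the keratin differences was not tested.

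Of 10 epithelial genes that are no keratins, 4 were lower and 2 were higher in trachea by 2-fold or more (median 0.03, mean level 8.26 and 8.13). Over all genes in trachea 7.70% were lower and 6.34% higher by as much. Cldn3, a claudin of columnar epithelium, differed by -1.70, Elf3 by -1.38 and Epcam by -1.07, while Grhl1 differed by 1.70 and the cadherin Cdh1 by -0.25. Of 6 basal cell genes that are no keratins 3 were at least 2-fold higher (median 0.77, mean level 8.42 and 9.19): Trp63 (6.92 and 9.03), Aqp3 (8.87 and 10.11) and Itgb4 (8.88 and 9.98). Ngfr, a receptor on airway basal cells, stood at 8.30 on both arrays, and Pdpn differed by -0.27. Lower in oviduct by 2-fold or more were 8 of 8 multiciliated cell genes (median -4.15, mean level 9.31 and 5.49) and 6 of 6 ovary genes (median -3.68, mean level 9.79 and 5.95). Over all genes in oviduct 2.75% were lower and 0.801% higher by as much. There the oviduct secretory genes had a median of 0.50 and the epithelial genes one of 0.24, with 0 past 2-fold in either list, and the keratins stayed within 2-fold except Krt23.

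**Figure D4:**
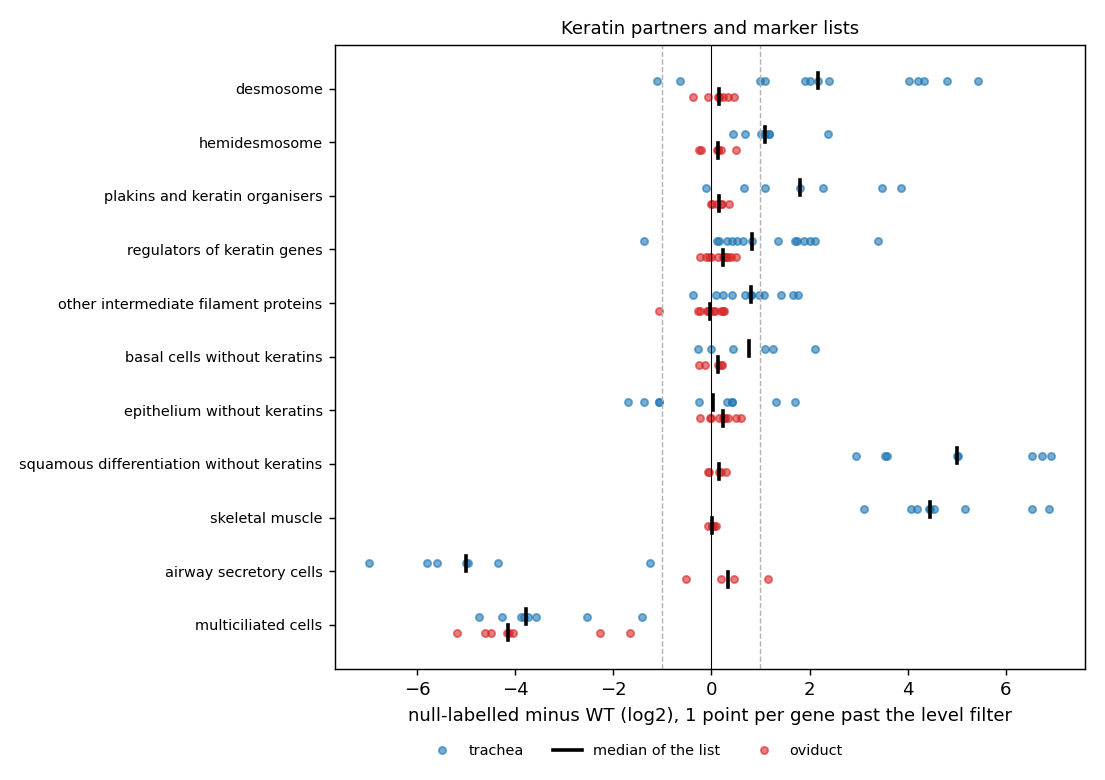
Difference between the array labelled GEMC1 null and the WT array (x axis, log2) for keratin partner lists and cell marker lists, with 1 point per gene past the level filter, trachea above oviduct in each row, black bars at the list medians and dashed lines at 2-fold. Trachea points of the squamous differentiation and skeletal muscle lists lie right of 2-fold (medians 5.01 and 4.45) and those of the airway secretory list left of it (median -5.01).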

How the data were processed

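The authors deposited 1 value per probe set and array, made with RMA per the submitters' processing notes, whose version is not stated. The deposited log2 values appear to have been logged again: 2 raised to a value had at most 6 significant digits in 100% of cells (relative tolerance 1e-09), against 0.044% for the values themselves. The power was used as log2 RMA signal, which compresses differences near background. Of 72688 probe sets 31072 were named by 1 gene, with symbols updated through a RefSeq table (GRCm38.p6), and 1678 that list several genes or were unresolved stayed unnamed. The probe set with the highest mean was kept per gene. The level filter was the 50th percentile of an array, and genes were counted past 2-fold. Where the dimmer array was under its negative-control median, the fold was taken from that median and is printed as "at least". The number of arrays, 1 per group, limits the precision of every value. Limma 3.58.1 in R 4.3.3 fitted genotype and tissue over 4 arrays with Benjamini-Hochberg adjustment over all genes, and was tested on simulated data. Named keratins were Krt4, Krt13, Krt5, Krt14, Krt8, Krt18 and those past 2-fold in any comparison; partner lists name the 3 largest differences per tissue, and further genes were named after their values were seen. The members and lists were chosen with earlier results of these data known. Alternatives were the filter, the fold threshold, the probe set rule, median centring and other limma settings.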

Additional observations from a re-analysis of the deposited data

Results flagged for a closer look

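For 3 simple keratins the sign of the difference between the array labelled GEMC1 null and the WT array was opposite in the 2 tissues, lower in trachea and higher in oviduct. The trachea difference minus the oviduct difference was -3.12 for Krt8 (-3.04 and 0.08), -3.23 for Krt18 (-2.69 and 0.55) and -1.64 for Krt7 (-1.03 and 0.61). The 3 oviduct differences were under 2-fold. That of Krt8 was near the median of 0.05 over all genes, so its sign in oviduct says little. Each value rests on 1 array per group, and the difference between tissues was not tested.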

How the results depend on the processing

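Centring the arrays on their medians moved the 39 differences of the 13 named keratins by at most 0.07. It turned 3 signs, all of differences near 0: Krt14 in oviduct (0.02 to -0.01) and, between the WT arrays, Krt32 (0.02 to -0.05) and Krt78 (0.04 to -0.02). Averaging probe sets cannot move a keratin, since each has 1. At a 1.5-fold threshold 14 of 37 keratins were higher in trachea (11.9% of all genes), 2 of 31 higher in oviduct (2.81%), and 3 of 29 higher in WT oviduct than in WT trachea (10.7%). At 3-fold 0 were higher in oviduct (0.179%), 0 higher in WT oviduct (2.21%), and 2 lower in WT oviduct (3.28%). These counts follow from the threshold. Without tissue in the limma fit, 0 keratins were higher at an unadjusted p under 0.05, in place of Krt23. The other 61 counts were within 1.5 times the main count, and 0 keratins passed a limma adjusted p of 0.05 under any setting run. The 61 include keratin counts by size with averaged probe sets, which could not move, and counts that stayed at 0. Background limits Krt76, Krt32 and Krt23, whose folds are bounds. Leaving out an array removes a group from a comparison or the only residual degree of freedom from the fit, so this was not run. No paired analysis was possible because each group has 1 array and the labels carry no replicate numbers.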
